A study of Mus musculus with 3 samples.

Results

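A group of 7 mouse genes whose products set the activity of the small GTPase RAS were examined in chromatin from alveolar type II (AT2) cells, the surfactant-producing epithelial cells of the lung. They are Nf1, Rasa1, Rasa2, Rasa3 and Rasal2, which encode RAS GTPase-activating proteins, and Sos1 and Sos2, which encode RAS exchange factors. The genes were chosen by name, as 7 of the 21887 protein-coding genes in the GRCm38 gene table. Every peak that touched a gene body, the annotated extent of the gene, or the 20 kb on either side was taken. This gave 16 of the 31165 ETV5 peaks and 13 of the 15134 H3K4me3 peaks.

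The cells came from C57BL/6 mice of 10 to 12 weeks with no treatment named in the labels, and each library was made by chromatin immunoprecipitation and sequencing. A first library was made with an antibody against ETV5, an ETS-family transcription factor. Another was made with an antibody against H3K4me3, the trimethylation of lysine 4 on histone H3, a mark of promoters. Neither library measures transcription. An input library, with no antibody, is listed beside them as background. The number of mice behind a library is not stated in the labels, and with 1 library per antibody no value has a replicate check and no test between antibodies or genes was possible. All 10 AT2 markers examined, among them Sftpc, Sftpb and Abca3, carried H3K4me3 within 1 kb of a gene end, while none of the 4 endothelial, 4 mesenchymal and 3 airway secretory markers did. H3K4me3 also lay at 3 of 5 markers of AT1 cells, the thin alveolar cells, at 3 of 4 ciliated markers and at 2 of 4 leukocyte markers.

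As background, RAS signals to the ERK kinases when it holds GTP. Exchange factors such as SOS1 and SOS2, brought to active growth factor receptors by the adaptor GRB2, load RAS with GTP, and GTPase-activating proteins such as neurofibromin, the product of Nf1, return it to the inactive form by speeding the hydrolysis of GTP. ETV5 is itself regulated downstream of FGF receptors and ERK, and ETS factors as a family recognise DNA around the core GGAA.

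Sequences around the start site are shown for the 3 genes whose promoter held the 6-base ETS motif searched here, CCGGAA on either strand, and for Sos2, whose promoter held no GGAA at all. Each runs 5′ to 3′ on the strand of the gene from 250 bases before the start site to 50 after it, from the RefSeq promoter table of build GRCm38.p6. Capitals mark CCGGAA, or TTCCGG where the motif lies on the other strand. The Nf1 promoter is chr11:79339642-79339941 on the plus strand, and those of Rasa1 (chr13:85289437-85289736), Sos1 (chr17:80480404-80480703) and Sos2 (chr12:69681803-69682102) are on the minus strand.
Nf1: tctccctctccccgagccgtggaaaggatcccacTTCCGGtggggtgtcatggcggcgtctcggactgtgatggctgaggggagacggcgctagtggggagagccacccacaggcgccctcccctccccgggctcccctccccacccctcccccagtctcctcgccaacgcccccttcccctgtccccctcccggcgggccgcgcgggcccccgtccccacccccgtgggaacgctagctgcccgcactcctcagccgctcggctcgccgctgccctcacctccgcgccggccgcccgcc
Rasa1: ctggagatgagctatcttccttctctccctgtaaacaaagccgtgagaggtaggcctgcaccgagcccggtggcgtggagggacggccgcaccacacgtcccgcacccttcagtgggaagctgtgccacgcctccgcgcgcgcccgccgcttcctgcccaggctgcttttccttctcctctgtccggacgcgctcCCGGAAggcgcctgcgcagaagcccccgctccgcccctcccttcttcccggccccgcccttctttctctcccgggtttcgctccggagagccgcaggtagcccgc
Sos1: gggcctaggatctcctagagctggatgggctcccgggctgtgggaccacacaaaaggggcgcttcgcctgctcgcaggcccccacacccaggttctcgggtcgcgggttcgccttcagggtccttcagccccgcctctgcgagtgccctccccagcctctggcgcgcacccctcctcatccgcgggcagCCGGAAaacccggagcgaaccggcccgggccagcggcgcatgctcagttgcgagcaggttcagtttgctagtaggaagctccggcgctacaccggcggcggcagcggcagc
Sos2: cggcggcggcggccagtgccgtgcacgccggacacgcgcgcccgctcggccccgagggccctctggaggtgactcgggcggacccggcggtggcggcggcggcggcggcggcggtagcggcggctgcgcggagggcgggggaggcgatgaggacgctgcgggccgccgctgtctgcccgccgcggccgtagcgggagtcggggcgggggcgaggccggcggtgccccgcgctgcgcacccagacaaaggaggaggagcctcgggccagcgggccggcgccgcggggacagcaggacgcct

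ETV5 lay within 1 kb of the start site of all 7 genes, and at each of them it was inside the H3K4me3 peak that covered the start. In each gene the ETV5 peak of highest fold had its summit, the position of most fragments, within 1 kb of the start site. The fold enrichment of these peaks over the input ranged from 13.0 at Rasa3 to 67.9 at Nf1, with a median of 19.1. The share of all 21887 protein-coding genes with an ETV5 peak in the same 20 kb window was 68.6%, and 66.0% had an H3K4me3 peak. The 7 of 7 is above the background in both. The 7 bodies were 74.8 to 277 kb long, against a median of 17.2 kb over all genes, so their windows were wider than most. The part of gene length in these counts was not tested. A fold of at least 10 in the window was reached by all 7, against 51.5% of genes. Of the 17492 genes with a promoter sequence, 54.9% had an ETV5 summit within 1 kb of a start and 52.4% had H3K4me3 over a start. Among the 9165 genes with H3K4me3 over a start, however, 94.1% had an ETV5 summit within 1 kb, and 7 of 7 does not stand apart from that share.

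**Figure D1:**
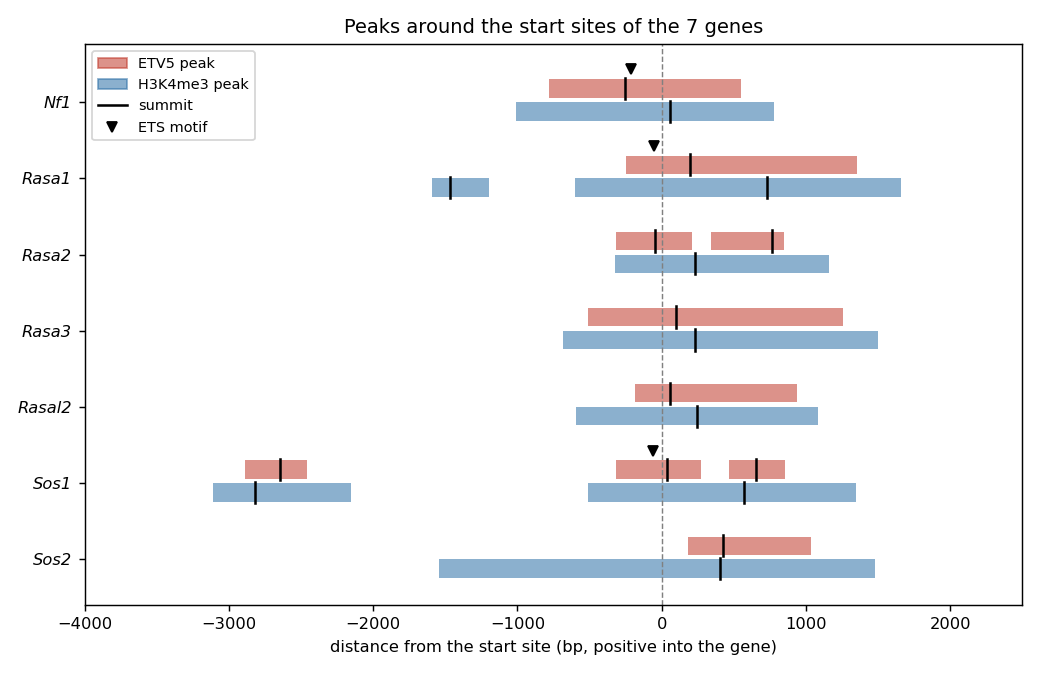
Position of ETV5 peaks (red) and H3K4me3 peaks (blue) around the start sites of the 7 genes, in bp from the start, positive into the gene. Black ticks are summits and triangles are CCGGAA motifs in the promoter. At each gene the highest ETV5 peak lies within an H3K4me3 peak that covers the start, and the triangles stand at Nf1, Rasa1 and Sos1.

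Nf1, the gene mutated in neurofibromatosis type 1, had the strongest ETV5 peak of the 7. It lay at 79339112 to 79340438 on chromosome 11 (GRCm38), was 1327 bp wide and reached a pileup of 127 fragments at the summit (exact 95% Poisson interval 106 to 151) over a local input background of 0.886. Its fold of 67.9 exceeded that of 99.2% of all ETV5 peaks and was 1.91 times that of Rasa1, the next gene. The summit was 254 bp upstream of the start site and 38 bp from the CCGGAA motif, which occupied positions −216 to −211, counted on the strand of the gene with the start base as 0. The annotated body of Nf1 begins before the start site used here, at 79339590. It held the motif and the summit, which was 48 bp from that end. The 1793-bp H3K4me3 peak there (79338881 to 79340673) had a pileup of 309 (275.5 to 345) and a fold of 48.6, with its summit 56 bp into the gene.

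Rasa1 encodes p120 RasGAP, which binds phosphorylated receptors through SH2 domains. Its ETV5 peak, at 85288134 to 85289737 on chromosome 13, had a pileup of 69 fragments (53.7 to 87.3), a fold of 35.5 and a width of 1604 bp. The summit lay 194 bp into the gene and 244 bp from the CCGGAA motif at −55 to −50. H3K4me3 covered 2263 bp at the start (85287825 to 85290087) with a pileup of 385, the highest of the 7 start peaks, and a fold of 48.1. A second, weak H3K4me3 peak of 396 bp and fold 4.23 had its summit 1471 bp upstream and held no ETV5.

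Rasa2 and Rasa3 encode GTPase-activating proteins of the GAP1 family, which bind membranes through C2 and PH domains. Rasa2 had an ETV5 peak of fold 18.6 and pileup 37 (26.1 to 51.0) at 96631291 to 96631819 on chromosome 9, with its summit 45 bp upstream of the start site used here. The annotated body reaches beyond that start site, and the summit lay 64 bp inside its end. A second peak in the same H3K4me3 peak, 765 bp into the gene, had a fold of only 3.67 from a pileup of 8 (3.45 to 15.8), lower than all but 2.34% of ETV5 peaks. At Rasa3 the start peak (13676331 to 13678098 on chromosome 8) was the widest ETV5 peak of the 16, at 1768 bp, but had the lowest fold of the 7 start peaks, 13.0. H3K4me3 was also lowest at Rasa3, with a pileup of 208 (181 to 238) and a fold of 27.8, against a pileup of 327 and a fold of 40.9 at Rasa2.

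Fold and pileup placed Rasa3 differently. Its pileup of 39 (27.7 to 53.3) was the fourth highest of the 7, close to the 37 of Rasa2, while the input background there was 2.08 against 1.04 at Rasa2 and 0.831 at both Rasal2 and Sos1. A higher background therefore moved with the low fold of Rasa3, and its part in that fold was not tested.

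Rasal2 encodes a further GTPase-activating protein and was the longest of the 7 genes, with a body of 277 kb. It had a single ETV5 peak in its whole window, at 157411657 to 157412779 on chromosome 1. The pileup was 34 (23.5 to 47.5), the fold 19.1 and the summit 54 bp into the gene. The single H3K4me3 peak of Rasal2 had a pileup of 263, a fold of 41.4 and a width of 1679 bp.

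Sos1, which encodes an exchange factor held in complex with GRB2, had the most peaks of the 7 genes. Its highest ETV5 peak, at 80480180 to 80480770 on chromosome 17, had a pileup of 45 (32.8 to 60.2) and a fold of 25.1, with the summit 34 bp into the gene and 90 bp from the CCGGAA motif at −61 to −56. A second peak in the same H3K4me3 peak, 652 bp into the gene, had a fold of 8.74. Another, at 80482911 to 80483339, lay 2646 bp upstream of the start in a separate H3K4me3 peak of 954 bp. Its pileup of 42 (30.3 to 56.8) was within counting error of that of the start peak, but its fold was 15.0 over an input background of 1.87, against 0.831 under the start peak. The H3K4me3 peak at the Sos1 start reached a fold of 50.3 and the upstream one a fold of 8.78.

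Sos2, the paralogue of Sos1, had the lower ETV5 fold of the exchange factor genes and the widest H3K4me3 peak of the 13. The ETV5 peak (69680818 to 69681671 on chromosome 12) had a pileup of 35 (24.4 to 48.7) and a fold of 16.0. It began inside the gene, with its summit 426 bp past the start and outside the printed promoter, which has no GGAA on either strand. H3K4me3 at Sos2 spanned 3021 bp (69680373 to 69683393), wider than 96.0% of H3K4me3 peaks, and had the highest H3K4me3 fold of the 7 genes, 52.2.

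Ordered by pileup, the start peaks ran Nf1, Rasa1, Sos1, Rasa3, Rasa2, Sos2 and Rasal2. The interval of Nf1 was clear of all others. That of Rasa1 overlapped that of Sos1 and lay above those of Rasa3, Rasa2, Sos2 and Rasal2. The intervals of Sos1 and the genes after it all overlapped one another, so that the order among them is not resolved by these counts. The intervals cover counting error within 1 library only. The highest pileup was at a GTPase-activating gene, Nf1. Both exchange factor genes fell with Rasa3, Rasa2 and Rasal2 among the genes whose order is not resolved, so these counts do not order the roles of the proteins.

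**Figure D2:**
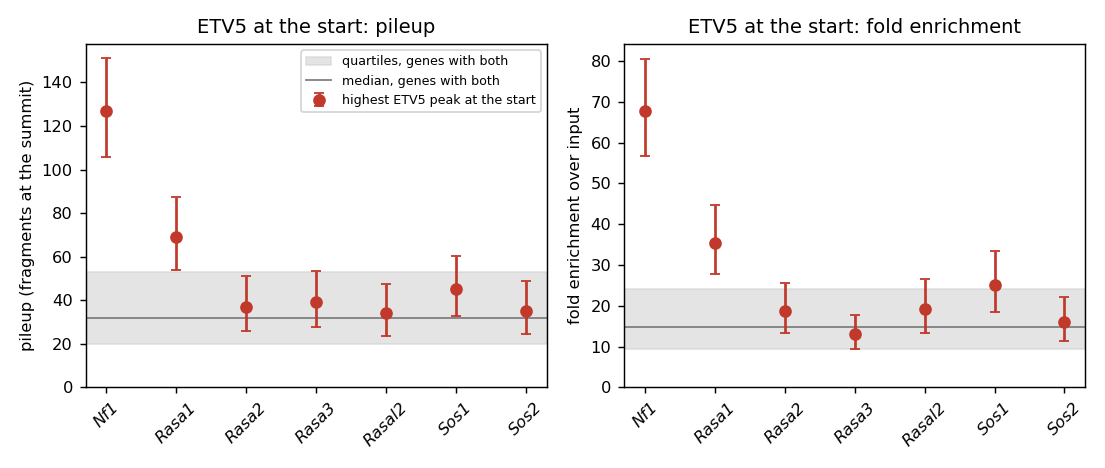
ETV5 at the start of the 7 genes as pileup (left, fragments at the summit) and fold enrichment over input (right). Points are the highest ETV5 peak within 1 kb of the start, bars are exact 95% Poisson intervals of the pileup, rescaled for fold, and the grey band and line are the quartiles and median of the 8623 genes with both H3K4me3 and ETV5 at a start. Nf1 at 67.9, Rasa1 at 35.5 and Sos1 at 25.1 stand above the band in fold.

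Set beside the 8623 genes with H3K4me3 over a start and ETV5 within 1 kb of one, the 7 genes spread over much of the distribution. The median fold over those genes was 14.8, with quartiles of 9.41 and 24.04. Of the 7 members, 6 were above that median and 3, Nf1, Rasa1 and Sos1, above the upper quartile. Nf1 lay at percentile 97.6, Rasa1 at 87.7, Sos1 at 76.9, Rasal2 at 63.9, Rasa2 at 62.7, Sos2 at 54.1 and Rasa3 at 42.3. By pileup the percentiles ran from 52.8 at Rasal2 to 96.0 at Nf1.

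**Figure D3:**
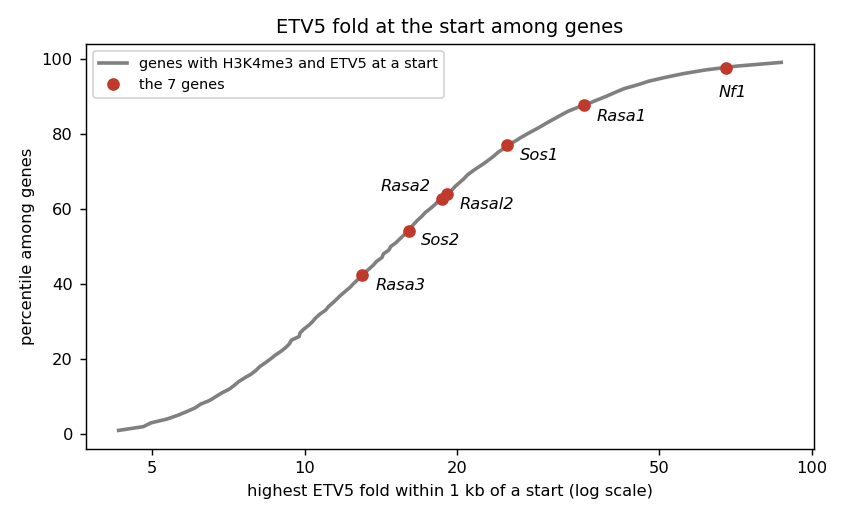
Highest ETV5 fold within 1 kb of a start (log scale) against its percentile among the 8623 genes with H3K4me3 over a start and ETV5 near it. The grey line is the distribution over those genes and red points are the 7 genes, from Rasa3 at percentile 42.3 to Nf1 at 97.6.

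H3K4me3 at the starts was on the high side for most of the 7. The median fold was 48.1, against 35.4 over genes with the mark over a start (quartiles 24.5 and 45.01), and 4 of the 7, Nf1, Rasa1, Sos1 and Sos2, were above the upper quartile. The median width was 1856 bp, against 1460 bp over those genes. The gene order differed from that of ETV5, with Sos2 at percentile 89.7 for H3K4me3 fold and 54.1 for ETV5 fold.

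The highest ETV5 peak of all 7 genes lay whole inside an H3K4me3 peak, as it did at 73.8% of genes with both. The ETV5 summit was upstream of the H3K4me3 summit in 6 of 7 genes, against 71.3% of 8565 genes with both. The H3K4me3 summit lay farther into the gene by 125 bp at Rasa3, 192 bp at Rasal2, 272 bp at Rasa2, 310 bp at Nf1, 535 bp at Rasa1 and 538 bp at Sos1. At Sos2 the order was turned, with the ETV5 summit 20 bp farther in. Fragments were 203 bp long for ETV5 and 288 bp for H3K4me3, and the distances at Sos2, Rasa3 and Rasal2 were below both lengths and that at Rasa2 below the longer. Over the 8565 genes the median summit position was 37 bp into the gene for ETV5 and 213 bp for H3K4me3.

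The 3 members with CCGGAA in the 300-base promoter, Nf1, Rasa1 and Sos1, were also the 3 with the highest ETV5 fold. Their folds were 25.1 to 67.9, and those of the 4 members without it 13.0 to 19.1. The ETV5 summit lay within the 300 bases only at Rasa2 and Sos1. Sequence outside them was not searched, so absence of the motif there does not show its absence under the peak. At least 1 CCGGAA in any promoter of a gene was found in 20.9% of the 17492 genes, and the longer CCGGAAG, which contains it, in 12.9%, with Nf1 and Rasa1 among them. Among the 8623 genes that, like the members, had both H3K4me3 and ETV5 at a start, 35.2% held CCGGAA (exact 95% Clopper-Pearson interval 34.2 to 36.2), and 3 of 7 does not stand apart from that share. The core GGAA alone was present in 96.4% of genes and in 6 of the 7 members, up to 6 times at Rasa1, so its presence separates few promoters. Across the 8623 genes with ETV5 and H3K4me3 at a start, the share with CCGGAA was 15.8% in the decile with the lowest ETV5 fold (interval 13.4 to 18.4) and 63.6% in the decile with the highest (60.3 to 66.8). Counted from the lowest fold, Rasa3 was in decile 5, where the share was 29.5%, Sos2 in decile 6 (30.2%), and Rasa2 and Rasal2 in decile 7 (39.98%). Sos1 was in decile 8 (50%), Rasa1 in decile 9 (60.4%) and Nf1 in decile 10. These shares describe letters in a fixed window and do not locate binding.

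All 7 promoters were rich in G and C. Their GC content ranged from 63.3% at Rasal2 to 82.7% at Sos2, with a median of 70.0%, against a median of 61.7% over the 11803 promoters of genes with H3K4me3 over a start. The number of CpG dinucleotides was 26 to 54 per 300 bases, against a median of 21. The Sos2 promoter, the richest in CpG, was the one with no GGAA.

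ETV5 was also counted in the gene bodies away from the starts. Their bodies ran from 74.8 kb at Rasa1 to 277 kb at Rasal2, longer than most genes, since 15.4% of protein-coding genes are as long as Rasa1 or longer. A single ETV5 summit lay in a body more than 2 kb from its ends and start. It was in Rasa3, 90238 bp past the start (13587215 to 13587498), with a fold of 5.19, a pileup of 9 (4.12 to 17.1) and no H3K4me3. Of 4945 protein-coding genes of 50 kb or longer, 35.2% had such a summit, and of the 2478 among them with H3K4me3 over a start 40.2% did. The 1 of 7 is below both shares, but with so few genes it does not stand apart from them. Per length, the 7 bodies had 1.05 such summits per Mb (exact 95% Poisson interval 0.0265 to 5.84). Over genes of 50 kb or longer the value was 6.73 per Mb, where summits in overlapping genes count once for each gene. Counted so, 5243 summits lay in 1743 of the 4945 genes. The interval treats summits as independent and may therefore be too narrow. The difference in summits per Mb was not tested, and at 5715049 ETV5 tags weaker peaks may have gone uncalled.

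**Figure D4:**
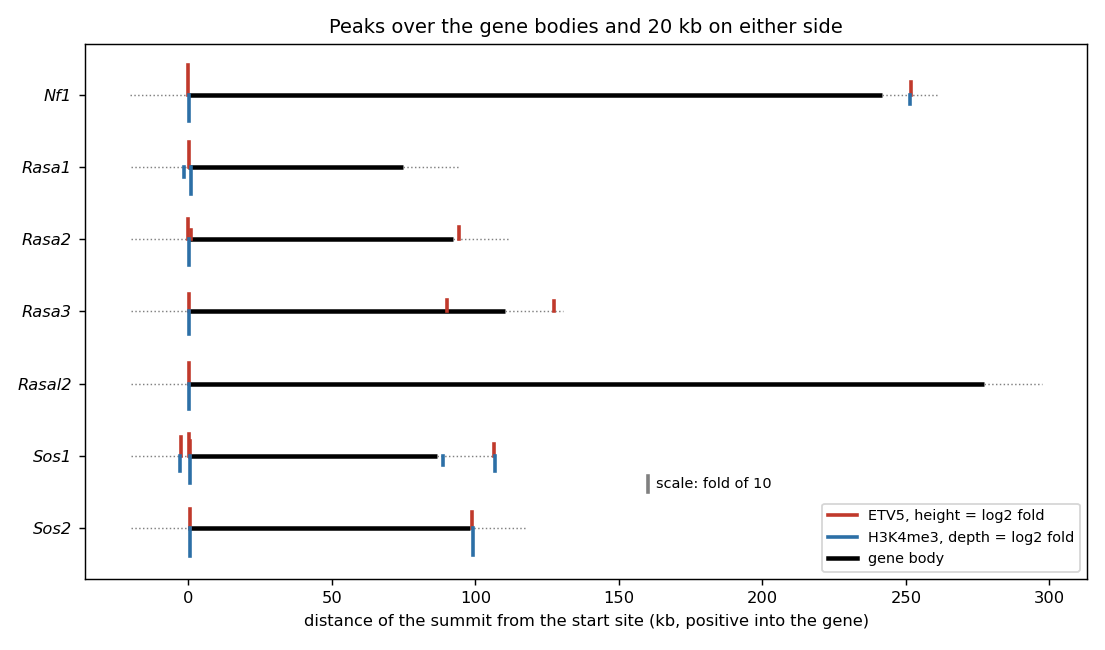
Summits of ETV5 peaks (red, upward) and H3K4me3 peaks (blue, downward) over the 7 gene bodies (black) and 20 kb on either side (dotted), in kb from the start site. Line length is proportional to log2 fold. The bodies hold a single ETV5 summit away from the start, in Rasa3, and no H3K4me3 summit.

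The other 6 ETV5 peaks lay outside the bodies, with folds of 4.45 to 15.0, and several belong to neighbouring genes by position. The peak beyond the end of Nf1 (79591350 to 79591817, fold 6.27) lay 528 bp inside Rab11fip4 and overlapped a weak H3K4me3 peak of fold 3.92. The peak past the end of Sos2 (69582623 to 69583241, fold 10.1) was 96 bp from an end of Vcpkmt. Most of it, with its summit, lay within the H3K4me3 peak there, which had a fold of 48.5. The peak past the end of Rasa3 (fold 4.45) was 422 bp from 1700029H14Rik, and one past the end of Rasa2 (fold 6.11) was 2175 bp from Rasa2 itself. Neither of those overlapped H3K4me3.

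Sos1 shares 39.7 kb with Arhgef33, whose annotated extent runs into that of Sos1 from the far end. The ETV5 peak of fold 5.74 at 80373773 to 80374160, the H3K4me3 peak of fold 8.70 that it overlapped and a further H3K4me3 peak of fold 3.61 lay in the body of Arhgef33 beyond the end of Sos1. That ETV5 peak lay just inside the 20 kb limit, 19.6 kb from Sos1, while another of fold 12.0 lay just outside it at 20.1 kb. The next outside were at 24.96 kb from Rasa1, with Ccnh as the gene of the nearest end and a fold of 19.0, and at 26.7 kb from Rasa3, with a fold of 10.6.

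In all, 13 of the 16 ETV5 peaks at these genes overlapped an H3K4me3 peak by at least 1 bp (81.3%, exact 95% Clopper-Pearson interval 54.4 to 96.0), against 48.9% of the 31156 ETV5 peaks on assembled chromosomes. These shares are not like for like, since all 7 members had H3K4me3 over the start and the 48.9% covers peaks at any position. The share for peaks around other genes with H3K4me3 over a start was not computed. The interval treats peaks as independent, though some lay in the same H3K4me3 peak. The 3 without it, at Rasa2 and Rasa3, had folds of 4.45 to 6.11. Conversely 11 of the 13 H3K4me3 peaks held ETV5 (84.6%, 54.6 to 98.1), against 84.2% of all H3K4me3 peaks on assembled chromosomes. The H3K4me3 peaks without ETV5 were the weak ones upstream of Rasa1 and beyond the end of Sos1.

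A further 12 RAS GTPase-activating and exchange factor genes were counted in the same 20 kb window. ETV5 was found at 9 of these 12, against 68.6% of all genes, and H3K4me3 at 7. Of the 9 with a promoter sequence, Dab2ip and Rasgrp2 had H3K4me3 over a start. Among the higher ETV5 folds in the window were 30.6 at Dab2ip, 21.0 at Rasgrp2 and 13.2 at Rasgrf1. The Dab2ip peak was 69361 bp from the nearest gene end, and within 1 kb of a start the fold was 17.5. The Rasgrf1 peak was 19676 bp from the nearest gene end and outside H3K4me3. Dab2ip encodes a GTPase-activating protein related to RASAL2, and Rasgrp2 and Rasgrf1 encode exchange factors. Rasgrp1, Rasgrp3 and Rasgrf2, which encode exchange factors of lymphoid or neural tissue among others, had no ETV5 peak and no H3K4me3 peak in the window.

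Of 16 further RAS pathway genes, substrates and partners of the 7 proteins among them, all had ETV5 in the window, against 68.6% of all protein-coding genes. All 16 also had H3K4me3 in the window, against 66.0% of genes. The 12 with H3K4me3 over a start all had an ETV5 summit within 1 kb of one, against 94.1% of such genes. The highest folds in the window were 105 at Spred2 and 99.2 at Spred1, whose products recruit neurofibromin to the membrane, 67.3 at Nras and 39.6 at Lztr1, where Thap7 had the nearest end. The Spred2 peak lay 4075 bp from the nearest gene end. Within 1 kb of a start the highest fold was 40.5 at Spred2 and 19.0 at Lztr1.

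The genes whose profile was most like that of Nf1 were Ate1, Slc35e2 and Rab40b. Likeness was the Euclidean distance over 4 standardised values from the 2 libraries, the highest ETV5 fold, the number of ETV5 peaks, the highest H3K4me3 fold and the widest H3K4me3 peak in the window, each on a log2 scale, across 13895 genes with both kinds of peak. Distances were 0.0782 for Ate1, 0.0919 for Slc35e2 and 0.172 for Rab40b, against a median of 2.54. Ate1 had ETV5 at fold 65.3 and H3K4me3 at fold 47.2. The nearest of the other 6 members was Rasa1 at 1.41, and the farthest was Rasa3 at 2.72.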

How the data were processed

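ETV5 and H3K4me3 were each measured in 1 library of AT2 cells. Each library was called on its own. The caller was MACS2 2.1.0.20150420 (named in the submitters' processing notes), run, per the file headers, at a q-value cutoff of 0.05 and with duplicate tags limited to 1 per position. The aligner was not given in the sources used here. Per the file headers the ETV5 list rests on 5715049 tags of 75 bp and 27495486 input tags, and the H3K4me3 list on 34907608 tags of 50 bp and 44758677 input tags. The input named in the header of the ETV5 list is another than that described in the labels, and folds should not be compared between the lists.

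The pileup signal of each peak, its fold enrichment ratio (1 added to pileup and background) and its −log10 q-value are as the authors deposited them. Pileups were all whole numbers. The input background printed here was computed back from pileup and fold. The labels name build mm9, but the ETV5 peaks on Y reach 90.8 Mb and 66.0% of H3K4me3 summits lay within 1 kb of a gene end of the GRCm38.p6 RefSeq table, so positions are given as GRCm38. Gene bodies came from that table, and start sites, strand and sequences from the RefSeq promoter table (17492 of the 21887 genes, all 7 members among them).

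Work was done in Python 3.11.15 with numpy 2.4.6, pandas 2.3.3, scipy 1.17.1 and matplotlib 3.10.9, and the steps were tested on simulated data. Samples were grouped by antibody. The members and lists were chosen with earlier results of these data known. All members were named, with every H3K4me3 peak and every ETV5 peak in H3K4me3 or of fold 10 or more, up to 4 genes of each further list, its genes without ETV5, and the 3 genes most like Nf1. An item that this rule names is not reported here. The count of summits within bodies, the comparison of summit positions and the deciles of fold were added after the peaks were seen. The planned descriptions were recomputed with other windows, thresholds, overlap rules and motifs.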

Additional observations from a re-analysis of the deposited data

How the results depend on the processing

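Of 44 values recomputed for 9 counts and shares, 36 stayed within 1.5 times the reported count or within the interval of the reported share. All 7 members kept an ETV5 peak, and an ETV5 summit within 1 kb of the start, under every alternative window, threshold and assignment tried for those counts, and all 7 kept H3K4me3. The number of ETV5 peaks at the members depended on the window and threshold. It was 10 in the gene bodies alone, 26 with a window of 50 kb, 10 at −log10 q of at least 10 and 9 at a fold of at least 10, against 16. H3K4me3 peaks numbered 7 in the gene bodies alone, against 13. The share of ETV5 peaks overlapping H3K4me3 was 100% at −log10 q of at least 10 and 100% at a fold of at least 10, against 81.3%, because the 3 peaks outside H3K4me3 were weaker than both thresholds. It fell to 61.5% with a window of 50 kb. It was 75% with H3K4me3 peaks of −log10 q of at least 10, and 75% when at least 50% of the ETV5 peak had to overlap. In the gene bodies alone it was 90%, and with a window of 5 kb 84.6%. With GGAA in place of CCGGAA, 6 members held the motif, against 3. No paired analysis was possible because there is 1 library per antibody and no replicate. At the ETV5 depth weaker peaks may have gone uncalled. Outside the gene bodies the 6 called ETV5 peaks had pileups of 9 to 42 fragments.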
